A study of Mus musculus with 18 samples.

Results

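CD8+ T cells that carry 41BB were followed over an ex vivo culture, and their transcripts after 72 h were set against those directly after the sort. The comparison used 6 of the 18 libraries of the series, 3 of 41BB+ cells at 0 h and 3 at 72 h, chosen by their labels alone. It covered the 12686 autosomal genes that passed a filter on low counts, of 55487 genes counted. Some genes that T cells use, such as Il2rg and Cox4i1, are listed at 0 in all 6 libraries, so a 0 in the table does not show that a gene is silent. Cells came from spleens and lymph nodes of wild-type C57BL/6J mice. CD8+ T cells had been sorted on CD137 (41BB), and the positive cells are named Tpam in the study and the negative cells conventional. The 0 h groups went straight to RNA extraction, and the 24 h and 72 h groups were first cultured with Dynabeads coated with antibodies to CD3 and CD28, at a bead ratio given as 1:2 and in IMDM medium. No group was cultured without beads, so the effects of time in culture and of stimulation cannot be told apart. The series calls the triplicates biological, and no source used here says whether each was 1 animal or a pool, so the p-values measure the spread between these libraries.

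41BB, encoded by Tnfrsf9, belongs to the TNF receptor superfamily and is a costimulatory protein that T cells display after recent antigen receptor signaling. Stimulation through CD3 and CD28 drives a resting T cell to grow first and to divide afterwards: MYC and its target genes build ribosomes, nucleotides and polyamines, the E2F factors open S phase, and a later wave of mitotic genes follows. Genes of resting T cells, many of them targets of FOXO1 and KLF2, are known to go down in the same process. In bulk libraries, fewer cells of a type and less RNA per cell cannot be told apart.

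Levels are given in CPM (counts scaled to a fixed total by TMM), in libraries 1, 2 and 3 in that order. Every log2 fold change is 72 h against 0 h in 41BB+ cells unless stated, with the standard error (SE) and the adjusted p of edgeR's quasi-likelihood test, Benjamini-Hochberg adjusted over all 13150 genes tested, and a gene was called when that value was under 0.05. The 24 h libraries of 41BB+ cells are set beside as values only, since the 24 h and the 72 h comparison share the 0 h libraries.

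Over the culture most genes of ribosome biogenesis, chaperones and the antigen receptor response fell, and most of mitosis, the histones and naive T cells rose. Of the 12686 genes, 5943 (46.8%) were called. In the main fit they divided evenly, with 2980 higher at 72 h (23.5%) and 2963 lower (23.4%). At least 2-fold changes were found for 1742 of the higher and 1600 of the lower genes, at least 4-fold ones for 760 and 552, and at least 16-fold ones for 191 and 79. In 2837 of the 2980 higher genes and 2790 of the 2963 lower genes, the 3 libraries of one time all lay above the 3 of the other (26.6% and 27.3% of all genes tested were so separated upwards and downwards). The even split depended on the processing. Genes called higher were 50.1% of the calls in the main fit, 42.2% with scaling by totals only and 54.7% with autosomal genes only. With a single library of the comparison left out they were 54.0% to 54.7%. The median log2 fold change of all genes was -0.0486. Over the alternatives it ranged from -0.167, when libraries were scaled by their totals only, to 0.0419 without 0 h library 1. With autosomal genes only it was 0.0201. Shifts of lists of genes are to be read against that range. Counts of called list members are to be read against the 23.5% and 23.4% of all genes called higher and lower.

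**Figure D1:**
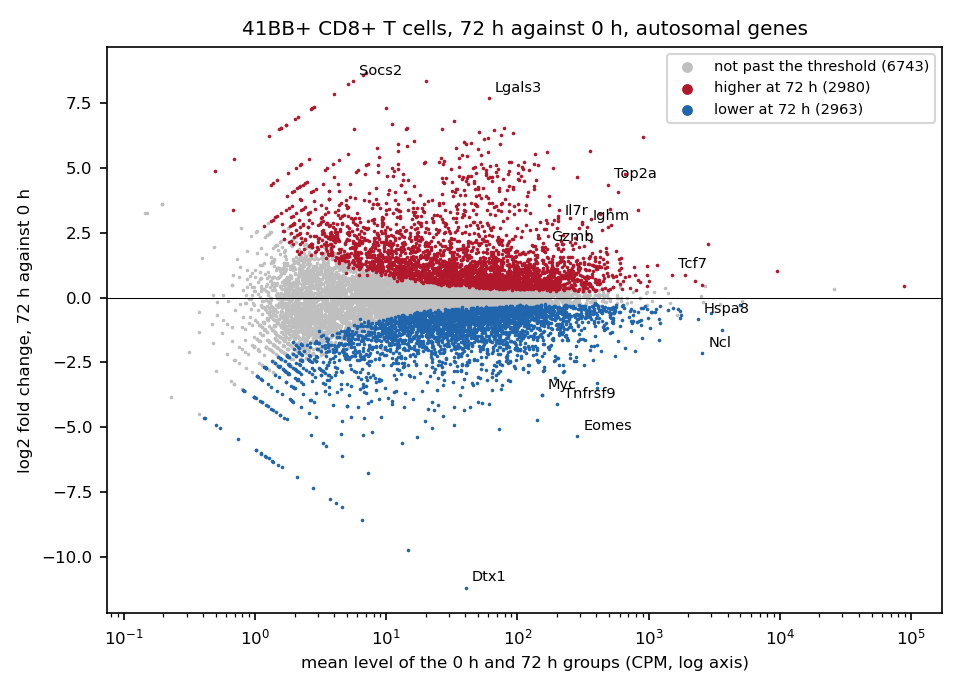
Log2 fold change (72 h against 0 h, 41BB+ cells, vertical axis) of the 12686 autosomal genes tested against their mean level in CPM (log axis). Red points (2980) were called higher and blue points (2963) lower, and the streaks at the left edge are genes with 0 or few counts at one time, whose fitted fold change depends on the prior count.

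The 6 libraries held 3394929 to 3802197 counts, with 17672 to 22816 genes detected. The composition of the libraries moved with time. Mitochondrial counts were 8.70% to 8.75% of the total at 0 h and 10.5% to 11.4% at 72 h, and the abundant Gm23935 rose from 6.65% to 8.21% of counts to 9.19% to 10.1%. Malat1, a nuclear RNA, was 0.339% to 0.406% at 0 h and 0.195% to 0.256% at 72 h. The shares of Y-linked and Xist counts differed between libraries of 1 group, so the libraries differ in sex composition, and only autosomal genes are counted. Whether composition took part in the changes of single genes was not tested beyond the removal of mitochondrial and ribosomal genes and of Gm23935, and the use of the Y-linked share as a covariate, which left the calls at 2995 and 2872 and at 2949 and 2953 genes higher and lower.

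Transcripts of the receptor used for the sort fell and stayed detected in all 3 libraries of 72 h. Tnfrsf9 stood at 355, 417 and 370 CPM at 0 h, 138, 132 and 150 at 24 h and 19.5, 35.3 and 12.4 at 72 h (log2 fold change -4.09, SE 0.23, adjusted p = 1.86e-12). Since 0 h cells were sorted on this protein, its high start was used in choosing them, while its level at 72 h was not. Cd8a, one chain of the coreceptor, was at 439, 574 and 473 CPM at 0 h and 488, 432 and 394 at 72 h, with overlapping groups and no call (log2 fold change -0.18, adjusted p = 0.223). It was called lower (adjusted p = 0.0377) only when libraries were scaled by totals. Cd8b1, the other chain, rose from 342, 410 and 417 to 997, 880 and 677 CPM (log2 fold change 1.13, SE 0.14, adjusted p = 1.96e-07). Cd4 had 1 count over the 0 h libraries and 2 over those of 72 h. Foxp3, the X-linked factor of regulatory T cells, was at 1.4, 5.1 and 2.08 CPM at 0 h and 20.4, 26.5 and 10.4 at 72 h, still far below Cd8a.

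Of 40 tested markers of other cells in 9 lists, 21 were called (52.5%, beside 46.8% of all genes), 5 higher and 16 lower. Some members, such as Itgam and Cd14 of the myeloid list, Mzb1 of plasma cells and Il17a of innate-like T cells, were listed at 0 in all 6 libraries. That does not show that they were silent or the other cells absent. Other myeloid members were counted at 0 h, Mpeg1 with 82 and Csf1r with 29 counts over the 3 libraries. Cd79a and Ms4a1 of B cells did not pass the filter on low counts. The summed level of the myeloid list was 116 to 130 CPM at 0 h and 62.7 to 130 CPM at 72 h, of the dendritic cell list 108 to 127 and 29.5 to 45.7 CPM, of the erythroid and platelet list 1.98 to 7.29 and 0 to 0.583 CPM, and of the innate-like and gamma-delta T list 10.8 to 15.1 and 8.97 to 15.4 CPM. Of tested members, 0 rose and 3 of 6 fell for myeloid cells (Csf1r, Mpeg1, Apoe), 0 rose and 2 of 6 fell for dendritic cells (Itgax, Ccr9), and 0 of 3 innate-like members were called. Itga2b was the 1 tested member of the erythroid and platelet list and fell, a call lost without 0 h library 1 and without 72 h library 1 or 3 (adjusted p = 0.0528 to 0.105). The calls of Mpeg1 and Csf1r were each lost without any 1 of the 72 h libraries (adjusted p = 0.0564 to 0.0661 and 0.0597 to 0.061). Of 13 NK cell markers 3 were tested, and the 2 that fell, Eomes and Prf1, are also genes of CD8+ T cells. The sum of that list went from 584 to 642 CPM to 12.8 to 30.4 CPM. At 0 h it was mostly Eomes, so it is no measure of NK cells. The dendritic cell sum at 0 h was likewise mostly Ccr9, which is also in the list of homing receptors. That sum is therefore no measure of dendritic cells.

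The B cell list moved in opposite ways among its members. The 5 members Cd74, H2-Aa, H2-Ab1, H2-Eb1 and Cd22, the last a surface protein of B cells and the others class II genes, fell. H2-Eb1 for example went from 5.61, 5.38 and 16.1 to 0.291, 0 and 0 CPM. Ighm, the constant region of the IgM heavy chain, rose instead from 83.2, 91.5 and 88.2 CPM at 0 h through 169, 214 and 144 at 24 h to 620, 573 and 560 at 72 h (log2 fold change 2.74, SE 0.13, adjusted p = 7.5e-16), and Ighd with it from 3.64, 3.12 and 5.2 to 29.7, 28.9 and 26.6 CPM. These 2 rises took the list's sum from 144 to 209 CPM up to 607 to 679 CPM. Without 0 h library 3 or 72 h library 2 or 3, 3 members fell in place of 5. No call was made for Cd74 without 0 h library 3 or 72 h library 2 or 3 (adjusted p = 0.0666 to 0.245) and for H2-Aa without 0 h library 2 or 3 or 72 h library 2 or 3 (adjusted p = 0.0527 to 0.117). Among markers of helper T cells, Zbtb7b (ThPOK, the factor of the CD4 lineage) rose from 0.28, 0.566 and 1.04 to 20.7, 29.5 and 21.7 CPM and Gata3 from 7.29, 9.35 and 18.7 to 29.1, 54.5 and 63.1 CPM, while Izumo1r and Cxcr5 fell, Izumo1r without a call once 0 h library 3 (adjusted p = 0.0685) or 72 h library 1 or 3 (0.0531 and 0.071) was left out. Irf4 was the 1 called plasma cell marker and Pecam1, which T cells also express, the 1 tested stromal and endothelial marker (124, 99.7 and 112 to 220, 232 and 302 CPM). The part of other cells in the changes described next was not tested.

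The machinery that makes ribosomes fell almost as a whole. Of 34 tested genes of ribosome biogenesis, 33 fell and 1 rose, with a median log2 fold change of -2.50 (all genes: -0.0486). Ncl, nucleolin, which organizes the nucleolus and pre-ribosomal RNA, was at 4180, 4300 and 4090 CPM at 0 h, climbed to 6690, 6870 and 6910 at 24 h and was down to 943, 957 and 923 at 72 h (log2 fold change -2.15, SE 0.08, adjusted p = 4.07e-17). All 3 libraries of 72 h lay below all of 0 h, and those of 24 h above. Polr1b, the second-largest subunit of RNA polymerase I, went from 122, 109 and 123 to 9.62, 13.1 and 7.53 CPM (log2 fold change -3.55, SE 0.18, adjusted p = 3.35e-15). Utp20, of the small subunit processome, went from 335, 365 and 328 to 49.2, 45.4 and 26.9 CPM (-3.08), and the RNA helicase Ddx21 from 937, 932 and 900 to 222, 196 and 161 CPM (-2.26). Npm1, nucleophosmin, fell by 1.63 on the log2 scale and Fbl, fibrillarin, went from 324, 348 and 297 to 76.3, 61.8 and 45.7 CPM. The exception, Wdr12 (log2 fold change 1.07), overlaps Carf on the opposite strand, whose mean went from 6.49 to 31.1 CPM, and reads of the pair cannot be told apart here. The summed level of the list was 12900 to 14000 CPM at 0 h, 18900 to 19500 at 24 h and 2620 to 3300 at 72 h.

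Many of these genes are known targets of MYC, which binds the E-box. Myc itself was at 293, 301 and 263 CPM at 0 h, 307, 335 and 319 at 24 h and 17.8, 25.9 and 19.7 at 72 h (log2 fold change -3.76, SE 0.14, adjusted p = 3.53e-17), and the 72 h values lay below every other 41BB+ library. Promoters of 30 of the 35 listed ribosome biogenesis genes were in the RefSeq table (GRCm38.p6), as windows of 250 bases before to 50 after the start. The E-box CACGTG, which reads the same on both strands, was in 7 of their 33 promoters (21.2%), in 7.15% of all 32851 promoters of the table, in 9.91% of the 11433 promoters of genes tested, in 14.4% of the promoters of genes called lower, in 7.82% of those called higher and in 8.90% of those not called. Promoters with an E-box, in capitals, are shown for a pair of genes of this fall, those of Utp20 (chr10:88826765-88827064, minus strand) and Wdr43 (chr17:71615965-71616264, plus strand). They were the members with the smallest adjusted p that held it, and the motif starts 38 and 18 bases into the transcript.
Utp20: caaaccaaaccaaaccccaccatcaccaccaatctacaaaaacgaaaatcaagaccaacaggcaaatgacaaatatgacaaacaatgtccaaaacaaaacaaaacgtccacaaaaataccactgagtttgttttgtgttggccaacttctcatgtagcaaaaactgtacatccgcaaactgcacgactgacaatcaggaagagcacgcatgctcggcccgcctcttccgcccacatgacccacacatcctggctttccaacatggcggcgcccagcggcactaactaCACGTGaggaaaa
Wdr43: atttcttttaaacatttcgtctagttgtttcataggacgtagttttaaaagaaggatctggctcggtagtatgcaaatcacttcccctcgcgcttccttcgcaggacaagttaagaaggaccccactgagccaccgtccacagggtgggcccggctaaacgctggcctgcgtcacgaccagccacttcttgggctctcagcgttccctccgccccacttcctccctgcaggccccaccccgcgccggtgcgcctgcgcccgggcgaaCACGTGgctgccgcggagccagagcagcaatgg
Wdr43, a further factor of the small subunit processome, was at 451, 466 and 462 CPM at 0 h and 84.8, 122 and 78.2 at 72 h (-2.28). A match describes the letters only.

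Other parts of the growth program fell with it. No heat shock and chaperonin gene rose, and 20 of 22 fell (median -1.37), the mitochondrial chaperonin Hspd1 from 592, 555 and 522 to 95, 103 and 75 CPM after 1270, 1280 and 1280 at 24 h (log2 fold change -2.62, SE 0.12, adjusted p = 2.81e-16). Hsp90aa1 and Hspa5, the chaperones of the cytosol and the endoplasmic reticulum, and Cct3 of the cytosolic chaperonin fell by 2.07, 2.04 and 2.17 on the log2 scale. Dnajb1 and Bag3 did not pass the test (log2 fold change -0.36 and -0.24). Dnajb1 passed it with totals only (adjusted p = 0.0377) and without 72 h library 1 (0.0403), and the sign of Bag3 turned without 0 h library 2 (0.44) and without 72 h library 1 (0.09) or 3 (0.23). Among 28 proteasome subunits 25 fell and 0 rose, by a smaller amount (median -0.799). Psma7 went from 211, 199 and 175 to 77.5, 73.1 and 69.2 CPM.

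Of 30 genes of amino acid transport and one-carbon metabolism 19 fell and 4 rose (median -1.17). Among them, Mthfd1, of the folate cycle, went from 283, 304 and 242 to 43.7, 46 and 27.8 CPM (log2 fold change -2.82, SE 0.14, adjusted p = 2.78e-15), Cad, the start of pyrimidine synthesis, from 326, 342 and 331 to 69.1, 77.9 and 53.6, and Gart, of purine synthesis, from 324, 344 and 298 to 65.6, 70.3 and 40.5. The amino acid transporters Slc38a2 and Slc43a1 were among the 4 that rose. Of 21 aminoacyl-tRNA synthetases and ATF4 targets 13 fell, among them Eprs (log2 fold change -1.59) and Iars (-1.85). The 2 that rose, Trib3 and Sesn2, are known stress-induced targets of ATF4 and not synthetases. Cytosolic ribosomal proteins fell less and more evenly (28 of 34, median -0.48, Rps24 from 1030, 1150 and 1020 to 556, 611 and 501 CPM). Rpl13a alone rose (1.21). The list's sum was 25900 to 29500 CPM at 0 h, 21100 to 22000 at 24 h and 18000 to 21100 at 72 h, without the 24 h peak of ribosome biogenesis. In 41BB- cells the median was -0.49, with 22 lower and 2 higher. The change was called more positive in 41BB+ cells for 3 members and more negative for 2. Ribosomal proteins have many processed pseudogenes, so their values are uncertain.

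Polyamines are small cations that growing cells make from ornithine, and one of them, spermidine, is used to modify the translation factor eIF5A. Of 20 tested autosomal genes of this group, 11 fell and 3 rose (median -0.747). Odc1, the first enzyme of the path, was at 274, 301 and 256 CPM at 0 h, 620, 610 and 627 at 24 h and 76.3, 87.1 and 48.6 at 72 h (log2 fold change -1.97, SE 0.25, adjusted p = 8.03e-06). Srm, spermidine synthase, went from 128, 174 and 118 through 246, 253 and 271 to 14, 21 and 6.08 CPM (log2 fold change -3.36, SE 0.30, adjusted p = 7.77e-08), so that the 3 groups were each apart from the others. Amd1, which makes the propylamine donor and has a close copy in Amd2, went from 64.7, 58.1 and 52.3 to 33.5, 21.9 and 19.7 CPM (-1.22, adjusted p = 1.62e-05). Mtap, which recycles its by-product, fell from 122, 123 and 135 to 19.5, 18.3 and 26.6 CPM. Eif5a was at 1000, 1090 and 1050 CPM at 0 h and 332, 317 and 167 at 72 h (log2 fold change -1.94, SE 0.17, adjusted p = 5.58e-09). Dhps, the first of the enzymes that modify it, fell from 19.9, 35.7 and 32.5 to 12.5, 20.4 and 14.8 CPM (-0.89, adjusted p = 0.00273), although the highest 72 h library lay above the lowest of 0 h. Azin1, an activator of Odc1, fell by 0.47 on the log2 scale (adjusted p = 0.00355). Oaz1, the antizyme (-0.17, adjusted p = 0.281), did not pass the test. Of the X-linked pair, Sms, spermine synthase, did not pass it either (60.3, 55.5 and 59.8 and 47.2, 56.3 and 40.5 CPM, adjusted p = 0.136, 0.0358 with totals only), and Sat1, which acetylates polyamines for export, was called higher (28.3, 45.6 and 49.9 and 72, 82.8 and 50.7 CPM, adjusted p = 0.00626). The 3 autosomal genes that rose were the transporters Atp13a2 and Atp13a3, and Apip of methionine salvage. Single libraries decided the call for Apip without 0 h library 1 or 72 h library 3 (adjusted p = 0.0525 to 0.063).

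Changes in energy metabolism were smaller. Of 33 nuclear genes of oxidative phosphorylation 16 fell and 0 rose (median -0.352), but 10 fell without 0 h library 1 or 3 and 8 without 72 h library 3. Cycs, cytochrome c, went from 71.7, 68.8 and 55.9 to 20.7, 20.1 and 12.4 CPM (-1.88). Of 25 tricarboxylic acid cycle genes 15 fell (median -0.376, Idh3a from 113, 129 and 124 to 65, 49.9 and 52.1 CPM) and 4 rose (Aco1, Idh1, Idh2, Glud1). The call was lost for Aco1 without 0 h library 1 or 72 h library 1 (adjusted p = 0.119 to 0.174), and with the replicate number as a block (0.0545). Of 25 genes of glycolysis and the pentose phosphate path 11 fell and 4 rose (median -0.346), with 7 falling without 0 h library 1. Hk2, the inducible hexokinase, went from 53, 60 and 58 through 211, 182 and 180 to 15.2, 25.3 and 12.4 CPM, while Hk1, the constitutive one, rose from 77.6, 65.4 and 70 to 194, 143 and 138. The other 3 that rose were Aldoc, Eno1 and Slc16a3, the last without a call when 0 h library 2 (adjusted p = 0.0571) or 72 h library 3 (0.0971) was left out. The lactate carrier Slc16a1 fell from 135, 122 and 125 to 40.5, 42 and 32.4 CPM. In the hypoxia list, 5 of 19 rose (Bnip3l, Pdk1, Kdm3a, Mxi1, Rora), beside 23.5% of all genes. In it 4 fell (P4ha1, Car12, Higd1a, Fam162a), beside 23.4% of all genes, and 2 without any 1 of 0 h libraries 1 and 2 and 72 h libraries 1 and 3. Single libraries decided the calls for P4ha1 without 0 h library 1 or 2 or 72 h library 1, 2 or 3 (adjusted p = 0.0725 to 0.179), for Higd1a without 0 h library 1, 2 or 3 or 72 h library 1 or 3 (adjusted p = 0.0527 to 0.252) and for Rora without 0 h library 1, 2 or 3 or 72 h library 1 or 2 (adjusted p = 0.0592 to 0.121).

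**Figure D2:**
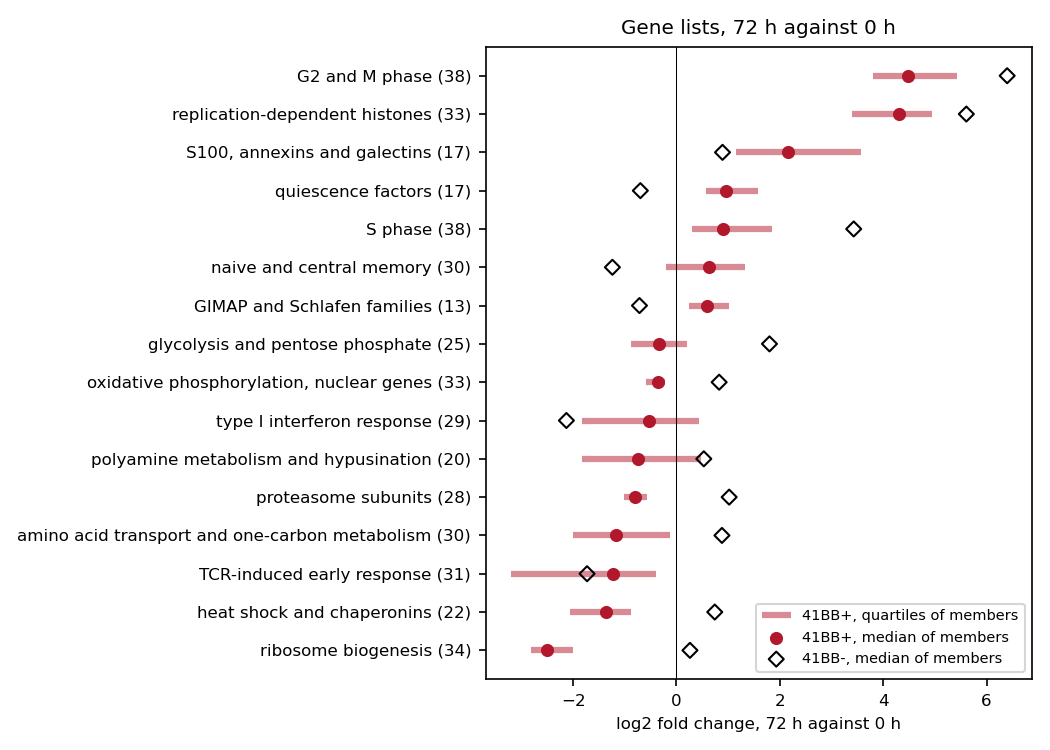
Median log2 fold change, 72 h against 0 h, of the tested members of 16 gene lists (number of members in parentheses), with the quartiles of the members in 41BB+ cells as bars. Filled circles are 41BB+ cells and open diamonds 41BB- cells: ribosome biogenesis lies at -2.50 in 41BB+ cells and at 0.261 in 41BB- cells, and G2 and M phase above 4 in both.

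Cell division genes went the other way. Of 38 tested genes of G2 and M phase 37 rose and 0 fell (median 4.49), and all 33 tested replication-dependent histones rose (median 4.31). Kif11, a motor of the mitotic spindle, went from 7.85, 3.4 and 8.84 CPM at 0 h to 205, 249 and 238 at 24 h and 374, 271 and 340 at 72 h (log2 fold change 5.60, SE 0.21, adjusted p = 1.33e-16). Top2a, the topoisomerase that untangles chromosomes, was at 52.1, 25.2 and 60.1, 842, 965 and 946 and 946, 824 and 1040 CPM, so that its high level was already there at 24 h. Birc5, survivin of the chromosomal passenger complex, went from 1.96, 0.85 and 4.16 to 169, 129 and 135 CPM (5.91), and Ccna2, cyclin A, from 3.92, 3.4 and 6.24 to 190, 151 and 176 (5.23). Pttg1, securin, was the member that did not pass the test (log2 fold change 0.56, adjusted p = 0.231), and passed it without 72 h library 3 (0.99, adjusted p = 0.0258). The sum of the list was 235 to 362 CPM at 0 h, 5290 to 5830 at 24 h and 5950 to 7660 at 72 h. Histone counts were 0.0659% to 0.0977% of all counts at 0 h and 1.18% to 1.23% at 72 h, and Hist1h2ag went from 4.48, 3.4 and 5.2 to 154, 167 and 179 CPM. The kit takes total RNA as its input, and histone transcripts lack a poly(A) tail.

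Genes of the mitotic wave are known to carry in their promoters the CHR element TTTGAA, read by the MuvB complexes, and CCAAT boxes read by NF-Y. Promoters of 32 of the 38 genes of the G2 and M phase list were found, 34 in all. TTTGAA on either strand was in 24 of them (70.6%), in 17.9% of all promoters of the table, in 12.4% of those of genes tested and in 14.9% of promoters of genes called higher. CCAAT on either strand was in 76.5% of them, in 37.4% of all promoters and in 37.8% of those of genes tested. For the S phase list (39 promoters of 32 of 40 genes) the shares were 12.8% for TTTGAA and 59.0% for CCAAT, and 48.7% held an E2F motif, TTCCCGC or TTGGCGC on either strand, found in 6.81% of all promoters, in 11.8% of those of genes tested and in 14.7% of the G2 and M phase promoters. In 43 promoters of 26 of the 30 genes of the naive and central memory list TTTGAA was in 14.0%, CCAAT in 25.6%, an E2F motif in 2.33% and the E-box in 6.98%. The promoters shown are those of Bub1b (chr2:118597961-118598260, plus strand) and Kif11 (chr19:37376132-37376431, plus strand), the list members with the smallest adjusted p that hold TTTGAA, here in capitals, on the plus strand 41 bases into the transcript of Bub1b and on the other strand, as TTCAAA, 19 bases before the start of Kif11.
Bub1b: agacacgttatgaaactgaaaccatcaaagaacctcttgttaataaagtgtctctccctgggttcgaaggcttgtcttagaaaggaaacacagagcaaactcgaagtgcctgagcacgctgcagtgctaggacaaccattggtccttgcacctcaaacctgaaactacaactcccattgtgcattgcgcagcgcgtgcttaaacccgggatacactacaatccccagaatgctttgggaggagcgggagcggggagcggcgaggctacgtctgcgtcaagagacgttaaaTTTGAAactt
Kif11: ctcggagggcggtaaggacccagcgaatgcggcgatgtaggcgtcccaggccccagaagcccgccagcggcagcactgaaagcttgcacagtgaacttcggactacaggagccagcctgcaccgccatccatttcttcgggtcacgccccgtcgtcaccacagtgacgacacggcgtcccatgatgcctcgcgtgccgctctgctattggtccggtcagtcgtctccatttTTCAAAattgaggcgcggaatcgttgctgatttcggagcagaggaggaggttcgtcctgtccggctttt
Bub1b, a kinase of the spindle checkpoint, rose from 18.8, 12.5 and 14.3 to 204, 152 and 201 CPM (3.61). A motif match is no evidence of binding.

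S phase genes were highest at 24 h. Of 38 tested, 26 rose and 3 fell, with a median log2 fold change of 0.892, against 1.59 in the 24 h comparison, which shares the 0 h libraries. The list's sum was 2500 to 2780 CPM at 0 h, 7940 to 8170 at 24 h and 3650 to 4720 at 72 h. Rrm2, of ribonucleotide reductase, went from 7.57, 8.5 and 9.11 through 322, 328 and 320 to 175, 158 and 160 CPM (log2 fold change 4.29, SE 0.17, adjusted p = 4.07e-17), and Uhrf1, of maintenance methylation, from 81.3, 62.6 and 69.2 through 455, 450 and 425 to 240, 180 and 215 (1.57). Members of the replicative helicase were not among the risers: Mcm5 was at 182, 175 and 162 CPM at 0 h, 463, 437 and 429 at 24 h and 207, 204 and 177 at 72 h (adjusted p = 0.185, 0.0367 without 72 h library 3), and Mcm2 fell from 241, 224 and 206 to 126, 120 and 101 CPM (-0.95). Ung, the uracil glycosylase, and Mcm6 were the other two that fell, Mcm6 without a call once 0 h library 1 or 72 h library 2 or 3 was left out (adjusted p = 0.081 to 0.108). Of 20 cell cycle regulators 16 rose, the atypical E2F repressors E2f8 (5.77) and E2f7 (5.18) among them, and 4 fell. The fallers were Ccnd2, a cyclin of G1 (602, 595 and 588 to 125, 176 and 195 CPM), Cdk4 and Cdk6, kinases of G1, and E2f4. Cdk4 overlaps Tspan31 on the opposite strand.

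**Figure D3:**
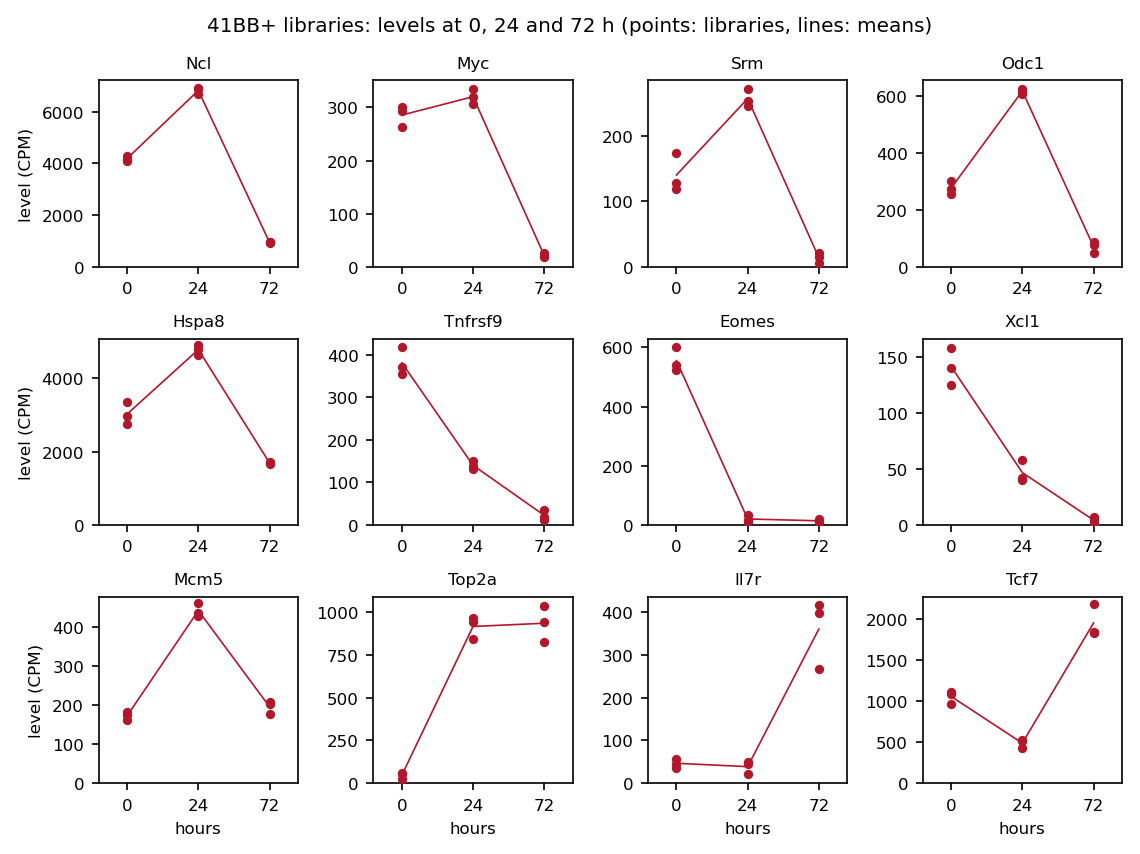
Levels in CPM (vertical axes from 0) of 12 genes in the 3 libraries of 41BB+ cells at 0, 24 and 72 h, points for libraries and lines through the group means, with the 3 times evenly spaced. Ncl, Srm, Odc1, Hspa8 and Mcm5 peak at 24 h, Tnfrsf9, Eomes and Xcl1 are highest at 0 h, Top2a stays high from 24 h, and Il7r and Tcf7 are highest at 72 h.

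Most genes of resting T cells were also higher at 72 h than at 0 h, although at 24 h their summed level was lower, when that of the mitotic genes was already high. Of 30 genes of naive and central memory cells 17 rose and 2 fell (median 0.637), where the 24 h comparison had a median of -0.966. The list's sum was 6670 to 7210 CPM at 0 h, 3370 to 4160 at 24 h and 10800 to 11600 at 72 h. Il7r, the receptor chain for the survival cytokine IL-7, was at 36.2, 45.6 and 57.2 CPM at 0 h, 43.7, 49.3 and 22.4 at 24 h and 267, 399 and 416 at 72 h (log2 fold change 2.96, SE 0.24, adjusted p = 1.22e-08). Tcf7, which encodes TCF-1, was at 966, 1110 and 1090, 507, 521 and 431 and 2180, 1830 and 1840 CPM (log2 fold change 0.88, SE 0.12, adjusted p = 2.93e-07). Every 72 h library lay above every 0 h library for both genes. Dgka, a kinase that dampens diacylglycerol signals, rose from 309, 308 and 322 to 840, 857 and 1040 CPM (1.54), and Dapl1 from 31.4, 26.1 and 33 to 138, 110 and 122 (2.03). Lef1 (0.88), Klf2 (2.09) and S1pr1 (1.88), the last a receptor for exit from lymph nodes, rose too. The 2 that fell were Igfbp4 and Il6st, a signaling chain of the IL-6 family receptors (283, 302 and 291 to 119, 131 and 128 CPM). Of 17 quiescence factors 13 rose and 0 fell (median 0.961). Cdkn1b, the inhibitor p27 of cyclin-dependent kinases, went from 43.7, 42.5 and 46 to 156, 152 and 147 CPM (log2 fold change 1.78, SE 0.14, adjusted p = 1.86e-11), Btg2 from 47.1, 65.4 and 46.8 to 211, 217 and 204, Ccng2 from 14, 9.91 and 15.6 to 131, 105 and 127, and Pik3ip1, an inhibitor of PI3K, from 25.8, 27.2 and 30.4 to 116, 119 and 133. Whether the mitotic and the resting genes rose in the same cells cannot be read from bulk libraries.

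Genes of T cell identity and traffic moved both ways. Of 23 genes of CD8 identity and proximal antigen receptor signaling 11 rose and 5 fell (Cd6, Fyn, Zap70, Lat, Ptprc), but 7 rose and 8 fell with libraries scaled by totals only. No call was made for Zap70 without 72 h library 3 (adjusted p = 0.0583). Themis rose from 296, 305 and 267 to 670, 551 and 678 CPM (1.13) and Cd247, the zeta chain, from 258, 254 and 264 to 466, 435 and 439 (0.79). Of 13 GIMAP and Schlafen genes 9 rose, Slfn1, a quiescence gene of T cells, from 29.1, 34.8 and 41.4 to 134, 143 and 112 CPM (1.88), and Slfn5 and Slfn8 fell. Of 26 homing receptors and integrins 13 rose and 8 fell. Itgb3, the beta-3 integrin, went from 7.57, 7.65 and 6.5 to 115, 106 and 104 CPM (log2 fold change 3.90, SE 0.25, adjusted p = 2.19e-13), Itgae, CD103, from 84.6, 69.7 and 77.5 to 271, 293 and 387, Selplg, the ligand of P-selectin, from 90, 93.2 and 124 to 440, 419 and 473, and S1pr4 from 17.4, 17.3 and 19.8 to 92.1, 108 and 85.4. Ccr9, the gut homing receptor, fell from 56.9, 61.7 and 68.9 to 2.62, 6.09 and 1.45 CPM (-4.21). Of 23 cytokine receptor chains 12 rose and 4 fell (Il4ra, Il6st, Il21r, Il27ra), 2 without 0 h library 3. Calls were lost for Il4ra without 0 h library 1, 2 or 3 or 72 h library 1 or 2 (adjusted p = 0.0535 to 0.32) and for Il21r without 0 h library 3 (adjusted p = 0.0573). Il18r1 went from 15.4, 19.5 and 17.9 to 102, 132 and 210 CPM (3.06), Il2rb, shared by the IL-2 and IL-15 receptors, from 183, 193 and 211 to 466, 534 and 752, and Il12rb2, which overlaps the abundant Serbp1 on the opposite strand, from 2.24, 1.98 and 2.08 to 39.3, 42 and 73.

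Genes of the recent antigen receptor response went down. Of 31 early response genes 18 fell and 3 rose (Jund, Btg2, Klf6), with a median of -1.23. In 41BB- cells 23 fell and 7 rose, with a median of -1.73. At 0 h the list's sum was higher in 41BB- cells, 2310 to 3930 CPM beside 1640 to 1910 in 41BB+ cells. Single libraries decided the call for Klf6 without 0 h library 1 or 72 h library 3 (adjusted p = 0.0524 to 0.0593). Egr1 went from 45.7, 50.7 and 44.7 to 1.75, 4.26 and 2.03 CPM (log2 fold change -4.13, SE 0.30, adjusted p = 4.49e-12), and Spry1, a feedback inhibitor, from 30.8, 38.5 and 31.7 to 1.17, 0.609 and 0.579 (log2 fold change -5.36, SE 0.37, adjusted p = 1.56e-12). Nr4a1 (Nur77) was at 73.4, 84.7 and 66.1 CPM at 0 h and 1.75, 6.09 and 3.18 at 72 h, and Cd69 fell by 1.68 on the log2 scale. Of 17 cytokines and chemokines 8 fell and 3 rose (Ltb, Tgfb1, Il16). Single libraries decided the calls for Tgfb1 without 0 h library 1 (adjusted p = 0.0869) and for Ccl5 without 0 h library 3 or 72 h library 1, 2 or 3 (adjusted p = 0.0959 to 0.561). Xcl1, which attracts cross-presenting dendritic cells, went from 158, 125 and 140 to 0.874, 7.31 and 4.63 CPM (log2 fold change -5.05, SE 0.44, adjusted p = 7e-08). Ccl4, an inflammatory chemokine, was at 15.7, 20.4 and 21.9 CPM at 0 h, 63.7, 68.2 and 104 at 24 h and 0.291, 2.74 and 0.868 at 72 h (-3.88). Mif fell from 178, 225 and 182 to 68.8, 47.8 and 34.4 CPM, and Ltb, lymphotoxin beta, rose from 61.4, 86.1 and 83 to 198, 230 and 175.

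Effector genes moved both ways. Eomes, a T-box factor of memory and NK cells, was at 541, 600 and 525 CPM at 0 h, 18, 31.9 and 10 at 24 h and 9.91, 21.3 and 9.84 at 72 h (log2 fold change -5.35, SE 0.32, adjusted p = 3.6e-10). Among 27 effector transcription factors 10 fell and 8 rose, beside 23.4% and 23.5% of all genes. Irf4 went up to 711, 681 and 782 CPM at 24 h from 140, 131 and 106 and was at 31.5, 42 and 34.7 at 72 h (-1.80), and Tox fell from 256, 266 and 243 to 45.2, 43.5 and 70.1. Runx3, of the cytotoxic lineage, rose from 131, 126 and 132 to 998, 766 and 804 CPM (log2 fold change 2.73, SE 0.13, adjusted p = 5.6e-16), and Ikzf2, Helios, from 110, 89.8 and 113 to 668, 560 and 476 (2.44). Of 19 cytotoxic genes 6 fell and 4 rose (Gzmb, Gzmc, Rab27a, Stxbp2), beside the same shares of all genes. Crtam went from 272, 276 and 271 to 7.29, 10.7 and 13.3 CPM (log2 fold change -4.71, SE 0.20, adjusted p = 1.33e-16) and Prf1, perforin, from 38.4, 34.8 and 44.5 to 0.874, 3.35 and 1.74 (-4.29). Gzmb, granzyme B, was at 63.9, 74.8 and 61.9 CPM at 0 h and 272, 372 and 125 at 72 h (log2 fold change 1.94, SE 0.36, adjusted p = 0.000525), with the third 72 h library lowest and still above 0 h. In the list of memory-phenotype and innate-like CD8 cells 5 of 12 rose (Il2rb, Klrd1, Cd7, Itga4, Ly6a) and 3 fell (Eomes, Ccl5, Xcl1). The call was lost for Itga4 without 0 h library 1, 2 or 3 or 72 h library 1 (adjusted p = 0.0717 to 0.227), and with the replicate number as a block (0.0621).

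Of 17 receptors that restrain T cells 5 rose (Ctla4, Lag3, Cd96, Klrd1, Vsir) and 3 fell (Cd160, Btla, Cd200), shares near the 23.5% and 23.4% of all genes, and the sign of the list's median depends on the scaling (-0.166 to 0.0288). Ctla4 went from 13.5, 14.7 and 5.98 to 332, 330 and 414 CPM (log2 fold change 4.99, SE 0.34, adjusted p = 8.95e-09) and Cd160 from 65.3, 58.9 and 51.8 to 4.08, 7.92 and 6.37 (-3.26). No call was made for Lag3 without 0 h library 2 or 3 or 72 h library 1 or 3 (adjusted p = 0.0645 to 0.117). Of the 23 TNF receptor superfamily members, ligands and adaptors 7 rose and 6 fell, again with a median of either sign by scaling (-0.0938 to 0.0932). Tnfsf14, LIGHT, fell from 19.1, 22.4 and 20.8 to 0.583, 1.22 and 1.74 CPM (-4.10), Tnfrsf26 rose from 28.9, 26.6 and 30.7 to 107, 92.6 and 93.8, and Traf1, an adaptor of 41BB, from 97.8, 112 and 120 to 235, 212 and 186. Of 19 NF-kB genes 6 rose (Malt1, 81, 67.4 and 81.2 to 134, 152 and 214 CPM), beside 23.5% of all genes. Another 5 fell (Rel, Relb, Nfkbib, Nfkbid, Birc3), beside 23.4% of all genes, and 2 or 3 without any 1 library. Calls were lost for Rel without 0 h library 1 or 2 or 72 h library 1 or 2 (adjusted p = 0.0551 to 0.162), for Relb without 0 h library 1, 2 or 3 or 72 h library 1 or 3 (adjusted p = 0.0731 to 0.254) and for Birc3 without 0 h library 1, 2 or 3 or 72 h library 1, 2 or 3 (adjusted p = 0.0557 to 0.136). In the regulatory T cell list 5 of 10 tested rose (Ikzf2, Il2ra, Ctla4, Nrp1, Capg), and Gpr83 and Izumo1r fell. Single libraries decided the call for Gpr83 without 0 h library 2 or 72 h library 2 or 3 (adjusted p = 0.0831 to 0.0979).

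Small calcium and lectin proteins rose almost without exception: 16 of 17 S100, annexin and galectin genes (median 2.15) and 0 fell. Lgals3 went from 0.28, 0.566 and 0.78 through 4.28, 6.5 and 4.64 to 151, 126 and 82.8 CPM (log2 fold change 7.69, SE 0.35, adjusted p = 4.69e-16), Lgals1 from 21.9, 26.9 and 32.3 to 333, 321 and 317 (3.58), and S100a10 from 89.4, 71.1 and 78.8 to 516, 526 and 491 (2.68). Lipid enzymes moved both ways, beside 23.5% of all genes that rose and 23.4% that fell. In sterol and fatty acid synthesis 8 of 27 rose and 5 fell (among them Idi1, Hsd17b7, Acaca and Fasn; 9 with totals only), and the median's sign depends on the scaling (-0.18 to 0.00713). Single libraries decided the call for Hsd17b7 without 0 h library 1 or 3 or 72 h library 1 or 3 (adjusted p = 0.0779 to 0.141). Most of the risers desaturate or lengthen fatty acids (Scd1, Scd2, Elovl5, Elovl6, Fads1, Fads2), Scd2 from 31.7, 43.9 and 45 to 341, 301 and 241 CPM (2.87) and Elovl5 from 72.3, 75.6 and 62.7 to 176, 149 and 183, while Fasn, fatty acid synthase, fell from 337, 388 and 326 to 187, 183 and 108 and Acaca by 1.38 on the log2 scale. In fatty acid oxidation 7 of 19 rose, Cpt1a, the carnitine step, from 23, 15.6 and 24.2 to 83.1, 82.2 and 121 CPM (2.18), and Echs1 and Ppargc1b fell. The call was lost for Echs1 without 0 h library 2 or 3 or 72 h library 1 or 2 (adjusted p = 0.0926 to 0.163). In autophagy and lysosome 12 of 27 rose, Npc1 from 24.7, 25.8 and 28.4 to 86.3, 97.7 and 85.4 CPM (1.77), and Lamp1 and Hexa fell, Lamp1 without a call once any 1 library was left out.

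The type I interferon list had 10 of 29 lower and 5 higher (Stat2, Ddx58, Zbp1, Trim30a, Eif2ak2; 3 without 72 h library 3), with a median of -0.541. Without 0 h library 1, 6 fell. Calls were lost for Trim30a without 0 h library 1 or 2 or 72 h library 2 or 3 (adjusted p = 0.0576 to 0.171) and for Zbp1 without 72 h library 3 (adjusted p = 0.0627), and Trim30a also lost its call with the replicate number as a block (adjusted p = 0.0528). Usp18 went from 11.5, 7.08 and 10.1 to 0, 0 and 1.45 CPM (-4.19) and Ifit1 from 5.04, 7.36 and 6.76 to 0.583, 0.304 and 1.16, whereas Ddx58, RIG-I, rose from 26.3, 31.4 and 29.4 to 60.6, 67.3 and 75.8 after 4, 10.8 and 2.32 at 24 h. Of 21 genes of MHC class I and antigen processing 10 fell and 5 rose. H2-Q7, which has close copies, went from 230, 274 and 255 to 88.3, 123 and 85.7 CPM, and the 5 that rose were Tap1, Tap2, Tapbp, Nlrc5 and Psmb9. Of 22 apoptosis regulators 9 rose, Bbc3 (PUMA) from 5.61, 3.12 and 3.64 to 28.3, 25.9 and 26.6 CPM (2.70), and 4 fell (Bcl2a1d, Bid, Fasl, Trp53). No call was made for Trp53 without 72 h library 3 (adjusted p = 0.0637). Of 19 p53 targets 9 rose, Trp53inp1 from 73.1, 75.1 and 87.9 to 347, 344 and 371 CPM (log2 fold change 2.17, SE 0.14, adjusted p = 1.78e-13) and Sesn1 from 44.3, 41.6 and 48.1 to 200, 123 and 143, and 3 fell (Aen, Tnfrsf10b, Plk3).

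Most of the largest single rises were of genes with 0 or few counts at 0 h. Ifitm1 had 0 counts over the 0 h libraries and 13.4, 24.1 and 4.63 CPM at 72 h, at least 50.6-fold higher against a floor of 3 counts over the group. On the same floor Fut7, which makes the selectin ligand sialyl Lewis X, was at least 48.1-fold higher (8.16, 18.6 and 13 CPM), Socs2, a feedback inhibitor of STAT5 signals, 40.5-fold (18.7, 9.74 and 4.92), Fads2, a desaturase, 29.4-fold (14.9, 3.96 and 5.21) and Ccdc136 19.7-fold (11.1, 3.96 and 1.16). With 1 to 3 counts at 0 h the ratios were 105 for Mxd3, a MAX partner that opposes MYC (95% exact interval 35.6 to 512), 102 for Iqgap3 (34.5 to 497) and 124 for Zbtb42 (21.8 to 4930). Bounds and intervals cover counting error only. Nusap1, a spindle protein, went from 0.561, 0.566 and 3.64 to 162, 126 and 178 CPM, and Cd80, a ligand of CD28, from 0.28, 3.12 and 1.04 to 207, 142 and 43.4 (log2 fold change 6.45, SE 0.67, adjusted p = 1.71e-06). Maats1, on chromosome 16 as Cd80 is (GRCm38, 38297754 to 38342143 and 38455561 to 38496335), was at 113, 42.9 and 2.61 CPM at 72 h, and for both genes library 1 was highest and library 3 lowest. Its call was lost under voom with quality weights (adjusted p = 0.19).

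Among the largest falls, Dtx1, a regulator and target of NOTCH, went from 89.4, 62 and 89.5 CPM through 8.85, 12.7 and 8.5 to 0 counts in all 3 libraries, at least 273-fold lower. The same floor gives at least 99.5-fold for Txnrd3, a thioredoxin reductase (29.4, 29.5 and 29.1 CPM at 0 h), 44-fold for Alpl (11.2, 16.7 and 11.2), 31.3-fold for the nucleoside transporter Slc29a2 (9.25, 8.78 and 9.63), 27.9-fold for Crabp2 (10.7, 10.2 and 4.16) and 25.4-fold for the macrophage gene Mpeg1. Fos, with 1 count left, had a ratio of 143 (25.3 to 5690), and its call was lost under voom (adjusted p = 0.313) and without 72 h library 1 (0.0581) or 3 (0.0543). The ratio was 93.9 for H2-Eb1 (16.5 to 3740) and 69.7 for Cd22 (12.1 to 2790), both from the B cell list. Per2, of the circadian clock, went from 17.4, 30 and 29.7 to 0.583, 0.913 and 0 CPM (log2 fold change -5.61, SE 0.65, adjusted p = 1.06e-07).

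The same contrast in 41BB- cells shares no library with the one in 41BB+ cells, and is set beside it here. In 41BB- cells 3383 genes were called higher (26.7%) and 2713 lower (21.4%). Of genes higher in 41BB+ cells, 1275 were also higher in 41BB- cells (42.8% of the first list and 37.7% of the second, beside 26.7% and 23.5% of all genes). Of those lower, 777 were lower in both (26.2% and 28.6%, beside 21.4% and 23.4%). Opposite calls were made for 853 genes lower in 41BB+ and higher in 41BB- cells (28.8% and 25.2% of those lists, beside 26.7% and 23.4% of all genes). For 529 genes they went the other way round (17.8% and 19.5%, beside 21.4% and 23.5%). Opposite calls were thus near or below the shares over all genes. The difference in net change, tested as an interaction of population and time, was called for 5215 genes (41.1%). Of these, 2266 had a more positive change in 41BB+ cells (17.9%) and 2949 a more negative one (23.2%). All genes with opposite calls were among them, as is nearly fixed in advance when both calls come from the same fit. With libraries of the same time and number taken as pairs, 2433 and 3084 were called.

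Most lists of growth genes changed more negatively in 41BB+ cells, and genes of resting cells more positively. The interaction was negative and called for 33 of 34 ribosome biogenesis genes, 27 of 28 proteasome subunits, 31 of 33 oxidative phosphorylation genes, 36 of 38 S phase genes and 19 of 25 glycolysis genes, and positive for 0, 0, 0, 0 and 1. In 41BB- cells the median log2 fold changes of these lists were 0.261, 1.02, 0.826, 3.43 and 1.80, beside -2.50, -0.799, -0.352, 0.892 and -0.346 in 41BB+ cells. At the start Ncl was at 4180, 4300 and 4090 CPM in 41BB+ and 841, 807 and 814 in 41BB- cells, and at the end at 943, 957 and 923 and 1820, 1650 and 1970. On the more positive side stood 26 of 30 naive and central memory genes (1 negative), 13 of 17 quiescence factors (0 negative) and 18 of 29 interferon genes (0 negative). Their medians were -1.24, -0.699 and -2.13 in 41BB- cells. Il7r was at 36.2, 45.6 and 57.2 CPM in 41BB+ and 409, 369 and 437 in 41BB- cells at 0 h, and at 267, 399 and 416 and 174, 151 and 145 at 72 h, so the order of the populations turned over. Ddx58 turned likewise, from 114, 116 and 115 CPM in 41BB- cells to 28, 31.7 and 37.7.

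The 6 largest differences in each direction mostly rest on genes near 0 in one group, so the fitted interaction depends on the prior count there. Mcm10, a replication factor, had 0 counts in 41BB- cells at 0 h and 118, 94.6 and 111 CPM at 72 h, whereas in 41BB+ cells it was already at 19.3, 13.9 and 12.7 CPM at 0 h and reached 66.4, 63.9 and 53. Fosl1, of the AP-1 family, and the chemokine Ccl3 had 0 counts in 41BB- cells at 0 h and fell in 41BB+ cells from 7.85, 7.93 and 10.7 to 0, 0.913 and 0 CPM and from 7.85, 7.65 and 9.37 to 0.291, 1.83 and 0.289. Alpl, Txnrd3 and Slc29a2, lost in 41BB+ cells, were low at both times in 41BB- cells, Txnrd3 at 2.74, 3.8 and 3.3 and 0.271, 1.81 and 1.71 CPM. H2-Ob, an inhibitor of class II peptide loading, went from 30.8, 24.4 and 22.5 to 0, 0 and 0.245 CPM in 41BB- cells and from 6.17, 6.51 and 9.11 to 0.583, 6.09 and 4.92 in 41BB+ cells, where it was not called (adjusted p = 0.137). Oas1a, an interferon-induced sensor, ended at 0 counts in 41BB- cells and at 1.17, 0.913 and 0.579 CPM in 41BB+ cells. C1qtnf9 fell from 7.62, 10.4 and 3.9 to 0.271, 0 and 0.245 CPM in 41BB- cells, and Zbtb42 and the prohormone convertase Pcsk1 rose in 41BB+ cells, Pcsk1 from 0.28, 0.283 and 0.26 to 5.83, 6.09 and 3.76 CPM beside 5.79, 4.11 and 3.3 and 3.26, 1.81 and 1.47.

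**Figure D4:**
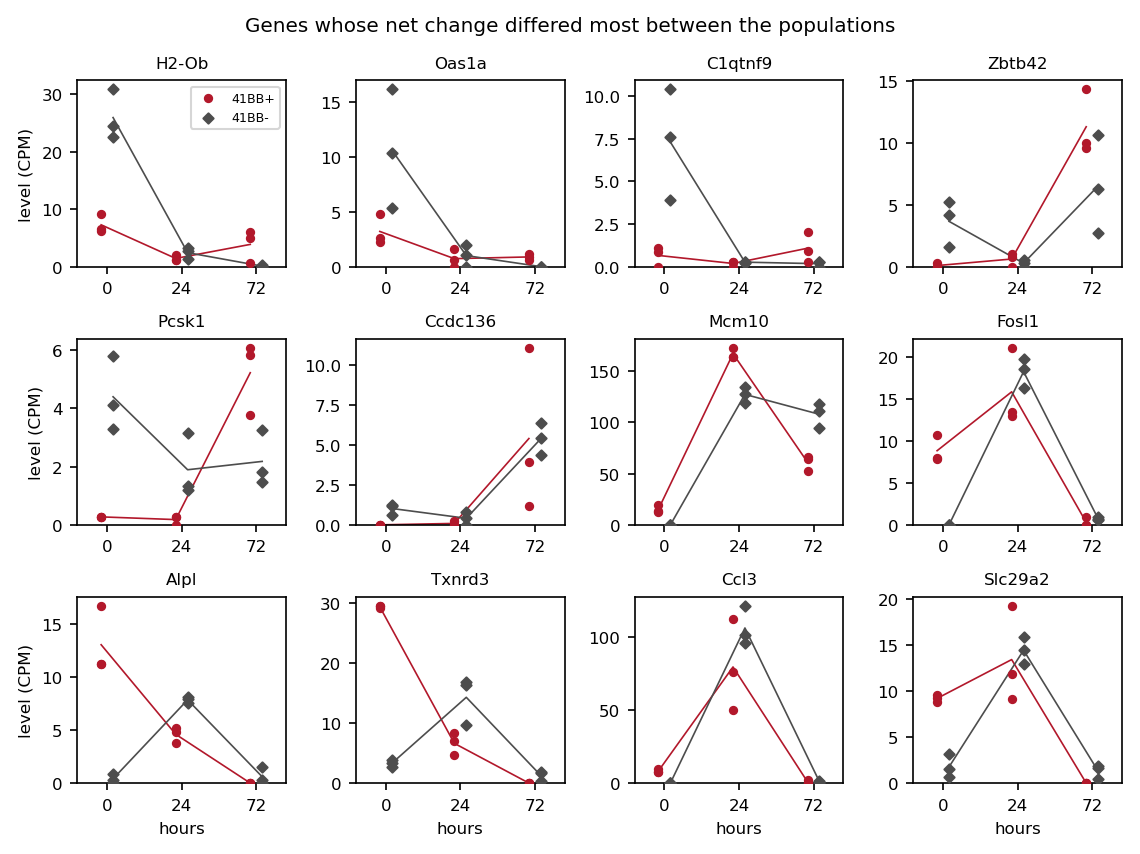
Levels in CPM (vertical axes from 0) of the 12 genes with the largest interaction of population and time, in 41BB+ (red circles) and 41BB- libraries (gray diamonds) at 0, 24 and 72 h, with lines through the group means and the 3 times evenly spaced. The 72 h values of Alpl, Txnrd3 and Slc29a2 in 41BB+ cells are 0, and Mcm10 starts at 0 in 41BB- cells and at 12.7 CPM or more in 41BB+ cells.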

How the data were processed

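The data hold 18 libraries, 3 in each of 6 groups, for which the labels' protocols name Takara's SMARTer Stranded kit (version 2) and total RNA. The authors deposited raw read counts per Ensembl gene. Per the submitters' processing notes, FastQC 0.11.9, Trimmomatic 0.38, HISAT2 2.2.1, featureCounts and GRCm38 were used. Strand setting, annotation release and the handling of multi-mapped reads: not given in the sources used here. Reads of overlapping genes and of near-identical copies can therefore not be told apart.

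From these counts, genes were filtered by filterByExpr (minimum count 10, minimum total 15), scaled by TMM and tested with edgeR 4.0.16 (R 4.3.3, quasi-likelihood, robust), in 1 fit of all 18 libraries with 1 mean per group. P-values were Benjamini-Hochberg adjusted over 13150 genes, and calls were counted over the 12686 autosomal ones. Alternatives used DESeq2 1.42.0, limma 3.58.1 (voom), other scalings and filters, and the removal of single libraries. The test was checked on simulated data with 1 fixed spread and few changed genes, unlike these data. It recovered 6.45% of 1.41-fold, 63.6% of 2-fold and 96.9% of 4-fold changes. For the interaction it recovered 0%, 18.2% and 90.6%. Unchanged genes made up 5.22% and 5.41% of the calls. Libraries held 3394929 to 3802197 counts, which limits low genes most. Any 2 libraries of 1 group differed by more than sampling noise in the 0 h and 72 h groups of 41BB+ cells (chi-square per degree of freedom 4.56 to 8.59), so each was counted once.

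Gene symbols came from GENCODE M21 (55227 of 55487 IDs matched). Promoter sequences came from RefSeq. The members and the 47 gene lists were chosen with earlier results of these data known. Genes were named by a rule: the checks of the sort, the 12 largest changes in each direction among called genes with at least 5 CPM in the higher group and separated groups, the 4 called members with the smallest adjusted p in every list (fewer where fewer were called), the 6 largest interactions in each direction, and 12 genes of interest. Called members of a list with 5 or fewer of them, and 32 further genes (among them Wdr12, Rpl13a, Pttg1, Dnajb1, Bag3, Mcm2, Mcm5, Mcm6, Ung, Klf2, S1pr1, Lef1, Tox, Hk2, Nr4a1, Top2a, Npm1, Fbl and Cd69), were named after their values were seen. A few members of the lists are not reported here by name.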

Additional observations from a re-analysis of the deposited data

Results flagged for a closer look

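The results here stand out because the change from 0 h to 72 h differed between 41BB+ and 41BB- cells by the interaction test (edgeR's quasi-likelihood test, Benjamini-Hochberg adjusted). It was called as more positive in 41BB+ cells for 2266 genes and as more negative for 2949. The interaction log2 fold change was 6.79 for H2-Ob, 6.45 for Oas1a, 5.82 for C1qtnf9, 5.68 for Zbtb42, 5.09 for Pcsk1 and 4.93 for Ccdc136. It was -9.60 for Mcm10, -9.19 for Fosl1, -8.96 for Alpl, -8.37 for Txnrd3, -8.09 for Ccl3 and -7.62 for Slc29a2. These fitted values depend on the prior count where a group is at 0, and they are no bounds. The call of the interaction of Ccdc136 was lost under voom with quality weights (adjusted p = 0.0777), without any 1 of the 41BB+ 0 h libraries (0.0556 to 0.0603), without 41BB+ 72 h library 1 (0.0858) and with libraries of the same time and number as pairs (0.0573).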

How the results depend on the processing

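Leaving out 1 library at a time gave 2832 to 3061 rising and 2373 to 2568 falling genes for 41BB+ cells, 2980 to 3092 and 2330 to 2492 for 41BB- cells, and 2242 to 2398 more positive and 2614 to 2778 more negative interactions. With a change of at least 2-fold also required, 1742 rose and 1600 fell for 41BB+ cells, against 2042 and 1512 for 41BB- cells. The other alternatives tried moved none of these counts by over 1.5 times. Scaling by library totals gave 2553 higher and 3495 lower in 41BB+ cells. Deviations of 0 h and 72 h libraries of 41BB+ cells with the same number correlated at -0.0217, 0.0829 and 0.0658 over 10037 genes, so the numbers did not pair the 2 times. Within a time, same-numbered 41BB+ and 41BB- libraries correlated at 0.154, 0.0961 and 0.0577 at 0 h and at 0.0845, 0.111 and 0.303 at 72 h, and they were alike in the Y-linked share of counts. A fit with these as pairs, chosen after seeing the data, gave 2433 positive and 3084 negative interactions and ended the call of Ccdc136 (adjusted p = 0.0573) among the 12 named. With the replicate number as a block, 2952 rose and 2950 fell for 41BB+ cells, 3355 and 2680 for 41BB- cells, with 2245 positive and 2949 negative interactions, and among named genes Itga4, Aco1 and Trim30a lost their calls. Without a single library, 1761 values of named genes kept their direction and side of the threshold, 110 lost the call, 3 gained it and 4 changed sign. Under the other settings, the 2-fold demand included, 3179 kept both, 123 lost the call (Slc16a3 under voom, adjusted p = 0.303, for one) and 3 gained it. The changes of sign were C1qtnf9 without 72 h library 1 of 41BB+ cells (-0.046; over all libraries left out -0.046 to 1.38), and Bag3 without 0 h library 2 (0.44), 72 h library 1 (0.09) or 72 h library 3 (0.23; over all -1.24 to 0.44), none of them called. The cause was not tested. With 3 libraries a group and 3394929 to 3802197 counts each in 41BB+ cells, genes of few counts are limited by depth.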
